A study of Danio rerio with 30 samples.

Results

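The 13 protein genes carried by the mitochondrial genome of the zebrafish were followed across spleen RNA of 30 fish. Members were the rows of the count table whose gene name starts with mt-, and 13 of 31901 gene IDs met this rule: mt-nd1 to mt-nd6 and mt-nd4l, mt-cyb, mt-co1 to mt-co3, and mt-atp6 and mt-atp8. The annotation of the mitochondrial genome also holds 2 rRNAs and 22 tRNAs, which carry no ID that could be matched to the count table and were not analysed here. All 13 protein genes passed the filter on low counts. Each library held 201 to 923 counts of mt-nd6, the least counted member, and 112231 to 428740 counts of mt-co1, the most counted one.

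The mitochondrial genome encodes core subunits of the respiratory chain: 7 of complex I (NADH dehydrogenase), 1 of complex III (cytochrome b), 3 of complex IV (cytochrome c oxidase) and 2 of complex V (ATP synthase), while complex II is encoded wholly in the nucleus. Both DNA strands are transcribed as long precursors that are cut mainly at the tRNAs lying between the protein genes, and most of the released mRNAs receive short poly(A) tails. mt-nd6 is the protein gene read from the opposite strand to the other members. In vertebrates mt-atp8 and mt-atp6, and likewise mt-nd4l and mt-nd4, overlap and share an mRNA. The spleen filters blood and holds red cells, which in fish keep their nucleus and mitochondria, beside macrophages, neutrophils and lymphocytes.

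The study asked whether the temperature of embryonic incubation alters the later immune response. Spleens came from adult AB fish aged 100 days, raised as embryos and larvae at 24, 28 or 32 °C. Adults of all groups were kept at 28 °C. At each temperature 5 fish had been injected intraperitoneally with lipopolysaccharide (LPS, a bacterial cell wall component, here from Pseudomonas aeruginosa; 2 µl of a 50 mg/ml solution), with the spleen taken after 12 h, and 5 were controls. The labels do not say what the controls received, nor the sex of the fish. They describe no pooling, and each library is counted here as 1 fish. The libraries were made from poly(A)-selected RNA, so the mitochondrial values depend on the short tails of these transcripts.

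Libraries held 14840723 to 23401031 counts. The spleen identity was seen in TLX1, a transcription factor needed for spleen formation, counted in 30 of 30 libraries with a median of 186 CPM (the read count scaled to a library of fixed size), and in the macrophage receptor marco at 1888 CPM. Markers of neighbouring organs were present in some libraries: summed acinar pancreas markers reached 61636 CPM and ovary markers 8258 CPM in 24 °C control replicate 4, and liver markers reached 5164 CPM in 32 °C control replicate 8. In 32 °C control replicate 2, 28134 genes had a count, against 19367 to 22887 elsewhere. These 3 libraries, 24 °C control replicate 4 and 32 °C control replicates 2 and 8, are referred to below as those that stand apart. Acinar pancreas markers were also high in libraries outside these 3. Their sum was 51199 CPM in 28 °C LPS replicate 8 and 33156 CPM in 28 °C control replicate 7. In 32 °C controls the median sum was 15924 CPM, against 949 CPM in 32 °C LPS fish. The part of such tissue in the values was not tested. In bulk RNA, fewer cells rich in mitochondria and less mitochondrial RNA per cell cannot be told apart.

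The 13 genes together took 1.82% to 5.41% of the counts of a library, with a mean of 3.41% ± 0.92 (SD, n = 30). In 24 °C fish the shares were 2.52, 3.12, 3.25, 3.55 and 4.28% in LPS fish, against 1.82, 1.96, 2.41, 3.09 and 3.72% in controls. In 28 °C fish they were 2.52, 3.04, 3.10, 3.32 and 3.91% in LPS fish, against 2.54, 2.81, 3.19, 3.86 and 5.41% in controls. In 32 °C fish they were 3.01, 4.02, 4.27, 4.36 and 5.40% in LPS fish, against 2.29, 2.69, 4.05, 4.11 and 4.62% in controls. LPS and control fish overlapped at every temperature. The highest share of all 30 fish was that of a control, 28 °C control replicate 7, and the next 32 °C LPS replicate 1. Means were 3.34% ± 0.64 in LPS fish and 2.60% ± 0.80 in controls at 24 °C, 3.18% ± 0.50 in LPS fish and 3.56% ± 1.15 in controls at 28 °C, and 4.21% ± 0.86 in LPS fish and 3.55% ± 1.00 in controls at 32 °C (SD, n = 5 each). With red cell marker genes taken out of the total, the means were 3.56% ± 0.64 in LPS fish and 2.88% ± 0.93 in controls at 24 °C, 3.56% ± 0.55 in LPS fish and 3.80% ± 1.24 in controls at 28 °C, and 4.55% ± 0.91 in LPS fish and 3.85% ± 1.07 in controls at 32 °C. The red cell markers themselves averaged 6.22% ± 1.86 of the counts in LPS fish and 9.47% ± 2.26 in controls at 24 °C, 10.7% ± 4.1 in LPS fish and 6.09% ± 1.63 in controls at 28 °C, and 7.47% ± 2.74 in LPS fish and 7.91% ± 2.09 in controls at 32 °C. The alpha globin genes hbaa1 and hbaa2 were among these markers, but no ID was matched by name to the beta globin genes hbba1 and hbba2. Any beta globin counts thus stayed in the total and outside the red cell shares. The part of the red cell markers in the comparisons of LPS and control fish was not tested.

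**Figure D1:**
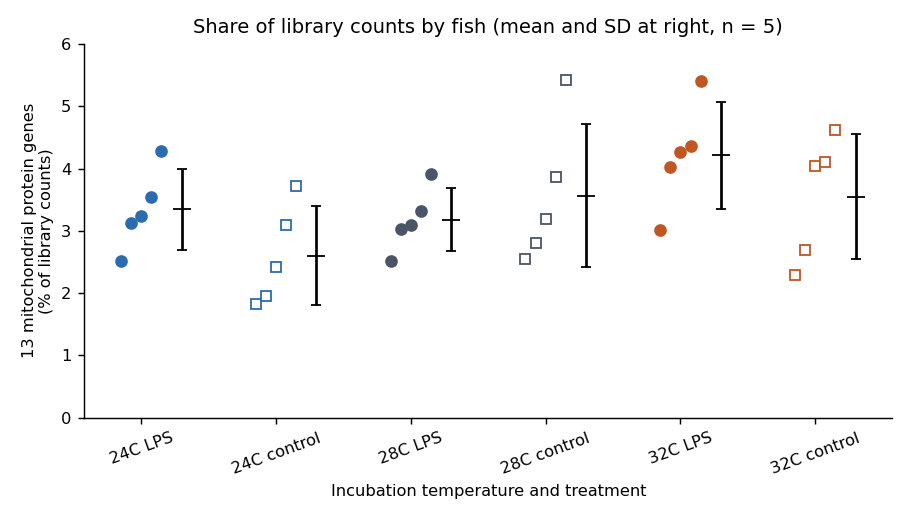
Percent of library counts taken by the 13 mitochondrial protein genes (vertical axis) in each fish (points, LPS filled and control open) of the 6 groups, with the group mean and SD in black at the right. The groups overlap at each temperature; 28 °C control replicate 7 stands highest at 5.41% and 24 °C control replicate 4 lowest at 1.82%.

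The make-up of the mitochondrial counts varied less among fish than their total. Complex IV transcripts took 66.1% ± 2.5 of the counts of the 13 genes, complex I 15.9% ± 1.2, complex V 9.05% ± 1.33 and complex III 8.95% ± 0.55 (SD, n = 30). These are shares of reads, not divided by transcript length, so they do not order the genes by number of transcripts. mt-co1, which carries the oxygen-reducing centre of cytochrome oxidase, took 33.9% ± 2.2. mt-co2, which receives electrons from cytochrome c, took 16.7% ± 1.2, and mt-co3 took 15.5% ± 0.9. These shares had a coefficient of variation within groups of 5.64% to 7.0%, against 27.5% to 32.4% for the CPM of the same 3 genes. The 3 genes form most of the sum they are divided by, which in itself narrows the spread of their shares. For mt-atp6 and mt-nd5 the coefficients were 14.1% and 12.3% for the share, against 37.7% and 32.0% for CPM.

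Cytochrome b, the core of complex III that oxidises reduced quinone (quinol), took 8.95% ± 0.55 of the mitochondrial counts. Among complex I subunits, all of which lie in its proton-pumping membrane arm, mt-nd4 took 4.56% ± 0.33, mt-nd5 3.58% ± 0.50, mt-nd1 3.54% ± 0.39 and mt-nd2 2.96% ± 0.29. The short subunits mt-nd3 and mt-nd4l took 0.85% ± 0.10 and 0.32% ± 0.04, and mt-nd6 took 0.067% ± 0.012. In complex V, mt-atp6, which forms part of the proton path, took 8.80% ± 1.29 and its small partner mt-atp8 0.25% ± 0.05. The shares of mt-atp8 and mt-nd6 were the most variable, with coefficients within groups of 20.8% and 18.4%. No source used here states whether counting used strand. Reads of mt-nd6 and of antisense RNA from the same place therefore cannot be told apart. Reads in the gene overlaps may have gone to either partner or to neither.

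Some libraries differed in the make-up. In 28 °C control replicates 3 and 7, complex V took 12.3% and 12.2% of the mitochondrial counts, against 8.16 to 8.55% in the other 3 controls at 28 °C and at most 10.9% in the other groups. mt-co1 took 29.6% and 29.8% there, the lowest of the 30 libraries. In 32 °C control replicate 8, mt-atp8 was 0.0704% of the mitochondrial counts, and in the other 29 libraries it was at least 0.192%. The other 4 controls at 32 °C had 0.201 to 0.249%, and the 5 LPS fish at 32 °C 0.212 to 0.297%. mt-nd6 took 0.0268% in that library and 0.0532 to 0.0732% in the other 4 controls, against 0.0544 to 0.0917% in the LPS fish. Read against its partner, mt-atp8 had 0.928 counts per 100 of mt-atp6 in that library, and 2.18 to 3.41 in the other 29. The library also had 0.921 counts of mt-nd6 per 100 of mt-nd5, against 1.33 to 2.51 elsewhere. Its mt-co1 share, at 34.8%, lay between the lowest and highest of the other controls.

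**Figure D2:**
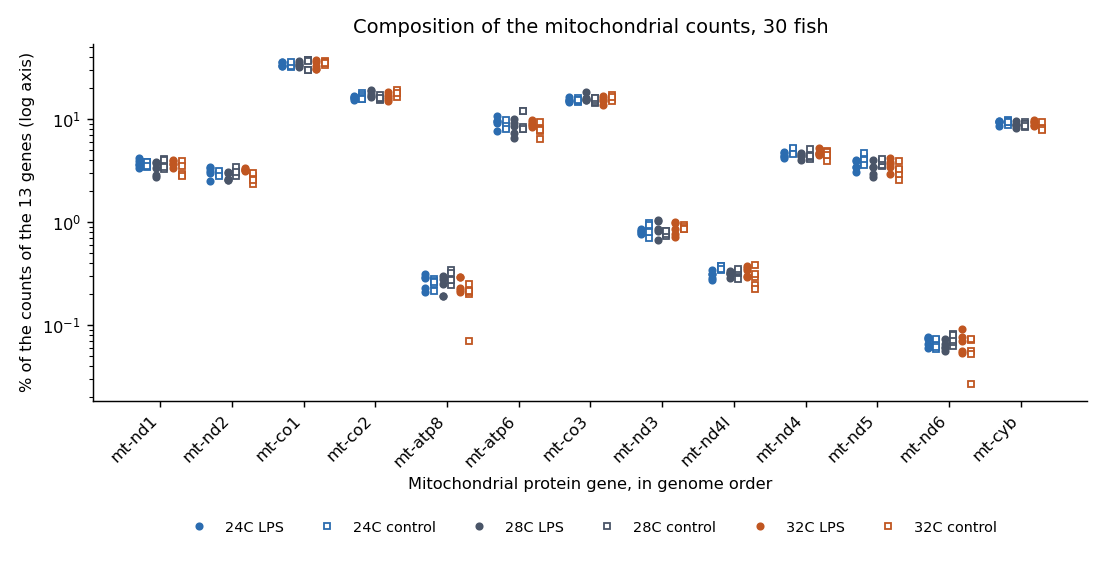
Percent of the counts of the 13 genes taken by each gene (vertical log axis), genes in genome order, 1 point per fish, groups from left to right as in the legend. The bands of the genes are narrow and the groups lie over each other; the isolated low points of mt-atp8 (0.0704%) and mt-nd6 (0.0268%) belong to 32 °C control replicate 8.

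At 32 °C all 13 genes had higher mean CPM in LPS fish than in controls, by a median of 0.61 on the log2 scale (range 0.31 to 0.89), but none passed the test. CPM here refer to the library total after scaling by trimmed means (TMM), and a gene was called at a Benjamini-Hochberg adjusted p under 0.05 over 17841 genes in edgeR's quasi-likelihood test. Of all genes, 0.00561% (1 gene) were called in this comparison and 47.4% had a log2 fold change above 0. Unadjusted p was under 0.05 for 6 of the 13 and for 7.37% of all genes. The 6 were mt-nd1, mt-nd2, mt-nd4l, mt-nd5, mt-nd6 and mt-atp8. With libraries scaled by their total counts in place of TMM, the median was 0.41 (range 0.12 to 0.69). All 13 stayed above 0 and 5 had an unadjusted p under 0.05 with that scaling. Relative to the median of all genes the members stood at 0.54 there, and at 0.64 under TMM. The members share a genome and precursor transcripts, so 13 fold changes of one sign are not 13 separate observations.

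mt-nd1, in the membrane arm of complex I beside the quinone site, had 859, 1381, 1920.4, 2221 and 2345 CPM in 32 °C LPS fish, against 614, 1019, 1135, 1349.8 and 1409 CPM in 32 °C controls. Of the LPS fish 3 lay above every control and 1 lay below 4 of the 5 controls. Its log2 fold change was 0.66 ± 0.30 (SE, edgeR adjusted p = 0.645).

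mt-nd6 had 16.7, 22.3, 34.0, 40.7 and 51.4 CPM in 32 °C LPS fish, against 11.9, 12.998, 20.7, 21.1 and 26.4 CPM in controls. Its log2 fold change was 0.82 ± 0.30 (SE, edgeR adjusted p = 0.558). With TMM scaling 3 LPS fish again lay above all controls, and the lowest LPS fish lay below 3 of them. One of the 3 was 32 °C LPS replicate 4, whose low TMM factor of 0.708 raises its CPM. By library total that fish lay below the highest control. Without the 3 libraries that stand apart the log2 fold change of mt-nd6 was 0.54 (edgeR unadjusted p = 0.126).

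mt-co1 had 8791, 13326, 17248, 18319 and 18922 CPM in 32 °C LPS fish, against 7715, 10078, 12227, 13739 and 16868 CPM in controls. The log2 fold change was 0.34 ± 0.26 (SE, edgeR adjusted p = 0.804), among the smallest of the 13, beside mt-co2 at 0.31 ± 0.29. Complex IV genes thus had the 3 lowest fold changes at this temperature, with mt-co3 at 0.39 ± 0.30, and cytochrome b stood at 0.57 ± 0.29.

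mt-atp8 had the largest fold change and the smallest p at 32 °C. It had 70.4, 89.5, 123, 128 and 166 CPM in LPS fish, against 34.1, 42.7, 62.3, 81.5 and 90.6 CPM in controls. With TMM scaling only the lowest pair of LPS fish lay within the range of the controls. The TMM factor was 0.708 in 32 °C LPS replicate 4, and a low factor raises CPM. By library total that fish also lay within the range of the controls. The log2 fold change was 0.89 ± 0.32 (SE, edgeR unadjusted p = 0.00967, adjusted p = 0.541). It was 0.74 without 32 °C control replicate 8, the library with the low mt-atp8 share, and 0.56 without the 3 libraries that stand apart, with unadjusted p of 0.0344 and 0.114. mt-atp6 had a log2 fold change of 0.61 ± 0.34. Without those 3 libraries the median of the 13 was 0.54, all 13 stayed above 0, and 2 had an unadjusted p under 0.05. The CPM of LPS and control fish overlapped for all 13 genes, and did not overlap for 1.05% of all genes.

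At 24 °C all 13 genes again had a log2 fold change above 0 between LPS and control fish, with a median of 0.28 (range 0.06 to 0.39), and none was called or had an unadjusted p under 0.05. In this comparison 0.0168% of all genes (3 genes) were called, 16.9% had an unadjusted p under 0.05 and 40.7% had a log2 fold change above 0. The groups overlapped for every member and were apart for 3.71% of all genes. Over all genes the median log2 fold change was -0.12, so the members stood 0.40 above it. Without 24 °C control replicate 4 the median over all genes was 0.04 and the members stood 0.22 above it. With limma-voom the median of the 13 was 0.11, and without 24 °C control replicate 5 it was 0.45.

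The largest value at 24 °C was that of mt-nd6, with 15.9, 20.6, 21.8, 21.8 and 30.5 CPM in LPS fish, against 11.8, 14.0, 14.1, 22.4 and 22.4 CPM in controls. Its log2 fold change was 0.39 ± 0.30 (SE, edgeR adjusted p = 0.530). The smallest was mt-nd4l at 0.06 ± 0.26, with means of 95.8 CPM in LPS fish and 92.2 CPM in controls. The LPS fish were more alike than the controls in mt-co1, which had 9344, 9553, 9642, 11056 and 12920.2 CPM in LPS fish, against 5903, 6511, 7483, 10822 and 11719 CPM in controls. The mt-co1 fold change was 0.31 ± 0.26 on the log2 scale. mt-nd1 had 886, 1088, 1125, 1199.5 and 1546 CPM in LPS fish, against 656, 671, 899, 1051 and 1377 CPM in controls, and mt-atp8 had 54.6, 71.3, 86.4, 91.4 and 113 CPM in LPS fish, against 39.1, 48.5, 66.5, 80.1 and 96.4 CPM in controls. In both genes the lowest LPS fish lay below some controls. Without the 3 libraries that stand apart, 11 of 13 genes were above 0, with a median of 0.19.

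At 28 °C LPS and control fish were not separated in either direction. The median log2 fold change of the 13 was 0.03 (range -0.27 to 0.25), 7 of 13 were above 0 and none was called. Of all genes 0.0112% (2 genes) were called and 51.7% were above 0. No member had an unadjusted p under 0.05, against 8.19% of all genes, and no member had groups that did not overlap, against 1.37% of all genes. The lowest value was that of mt-atp8 at -0.27 ± 0.32 and the highest that of mt-nd3 at 0.25 ± 0.33, and mt-atp8 also had the smallest p (edgeR unadjusted p = 0.404, adjusted p = 0.838).

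The 28 °C controls spread widely. mt-nd1 had 823, 1101, 1219, 1371 and 1376 CPM in 28 °C LPS fish, against 754, 828, 952, 1609 and 2345 CPM in controls. mt-atp8 had 65.3, 77.8, 81.8, 92.6 and 116 CPM in LPS fish, against 58.1, 62.9, 76.8, 133 and 192 CPM in controls. In both genes every LPS fish lay inside the range of the controls. mt-nd6 had 15.9, 20.5, 24.0, 26.1 and 27.0 CPM in LPS fish, against 16.1, 17.2, 20.4, 26.9 and 47.7 CPM in controls. mt-co1 had 7173, 11599, 14012, 14312 and 14735 CPM in LPS fish, against 7718, 9467, 10142, 11557 and 17617 CPM in controls. In all 4 genes the highest control was replicate 7. Without it the median log2 fold change of the 13 at 28 °C was 0.35, with all 13 above 0. With libraries scaled by their total counts in place of TMM, all 13 were below 0, with a median of -0.21. That scaling moved the median of all genes in this comparison to -0.24, so relative to all genes the members stood at 0.03, and at 0.01 under TMM.

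**Figure D3:**
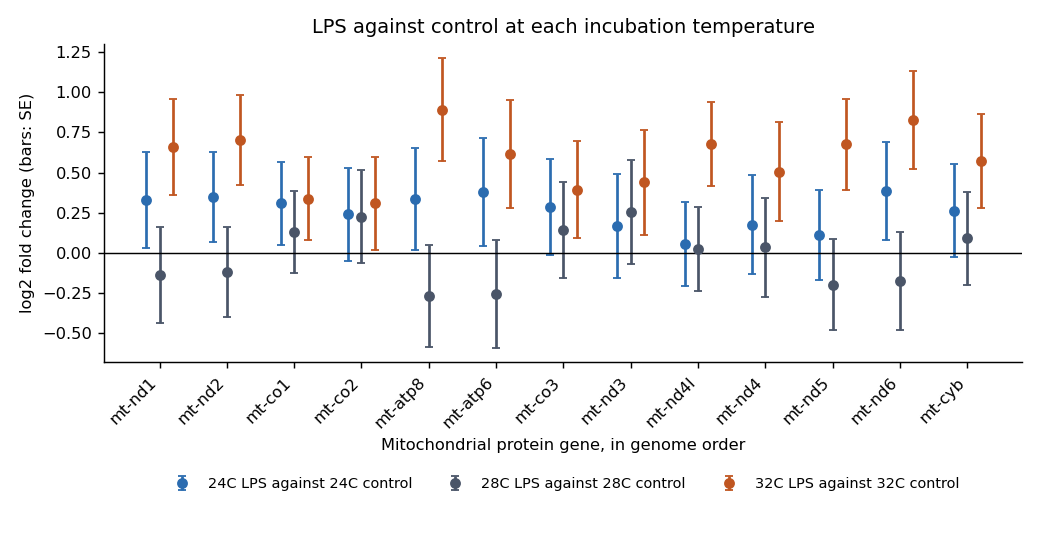
Log2 fold change of LPS over control fish (vertical axis, bars are SE from edgeR) for each of the 13 genes in genome order, at 24 °C, 28 °C and 32 °C. The 32 °C values lie between 0.31 and 0.89, the 24 °C values between 0.06 and 0.39 and the 28 °C values on both sides of 0; none passed the adjusted threshold.

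The difference between the responses at 32 °C and 28 °C was above 0 for all 13 genes, with a median of 0.65 (range 0.08 to 1.16), and none was called. Here 0.112% of all genes (20 genes) were called, 46.1% were above 0, and 10.1% had an unadjusted p under 0.05, against 4 of 13 members. The largest difference was that of mt-atp8 at 1.16 ± 0.45 (SE, edgeR unadjusted p = 0.0158, adjusted p = 0.359), followed by mt-nd6 at 1.00 ± 0.43. The smallest was mt-co2 at 0.08 ± 0.41. Without 28 °C control replicate 7 the median was 0.31, 9 of 13 were above 0 and none had an unadjusted p under 0.05.

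Between 24 °C and 28 °C the responses differed by a median of 0.18 (range -0.09 in mt-nd3 to 0.63 in mt-atp6), with 12 of 13 above 0, none called and none with an unadjusted p under 0.05. Of all genes 0.751% (134 genes) were called, 42.4% were above 0 and 21.1% had an unadjusted p under 0.05. This median was 0.08 without the 3 libraries that stand apart, -0.04 without 28 °C control replicate 7 and 0.50 with total-count scaling. Between 32 °C and 24 °C the median was 0.33 (range 0.03 in mt-co1 to 0.62 in mt-nd4l), with all 13 above 0 and none called. Of all genes 0.0224% were called and 55.8% were above 0, and 9.9% had an unadjusted p under 0.05, against 0 of 13 members. The median was 0.06 with total-count scaling, with 8 of 13 above 0, and 0.15 without 24 °C control replicate 5. Averaged over the 3 temperatures, the response had a median of 0.27 (range 0.20 in mt-nd5 to 0.34 in mt-nd6), with all 13 above 0, none with an unadjusted p under 0.05 and none called, against 0.0112% of all genes called, 6.03% with an unadjusted p under 0.05 and 42.1% above 0. Without 28 °C control replicate 7 all 13 had an unadjusted p under 0.05 in this average, with a median of 0.38 and still none called. The share of all genes under 0.05 in that fit is not given here. That control had the highest mitochondrial share of all 30 fish, so leaving it out raises LPS over control in itself. Of the 30 fits without 1 library (medians of 0.23 to 0.38) it gave the highest median. These contrasts share their control and LPS fish with the single-temperature comparisons and with each other.

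Among control fish, incubation at 24 °C went with lower mitochondrial means than at 28 °C, again without a call. All 13 fold changes were below 0, with a median of -0.41 (range -0.66 to -0.29), while 2.47% of all genes (440 genes) were called and 58.9% were above 0. Unadjusted p was under 0.05 for 1 of 13 members, mt-atp8, and for 19.9% of all genes. mt-atp8, already given fish by fish, averaged 66.1 ± 23.2 CPM in 24 °C controls and 105 ± 57 CPM in 28 °C controls (SD, n = 5 each), a log2 fold change of -0.66 ± 0.32 (SE, edgeR adjusted p = 0.246). The smallest change was that of mt-nd4l at -0.29 ± 0.26. mt-nd1 averaged 931 ± 299 CPM in 24 °C controls and 1298 ± 676 CPM in 28 °C controls, and mt-co1 8488 ± 2621 CPM in 24 °C controls and 11300.1 ± 3792 CPM in 28 °C controls. No member had groups that did not overlap, against 3.55% of all genes. Without 28 °C control replicate 7 the median was -0.16 and 3 of 13 were above 0.

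Controls from 32 °C and 28 °C differed by a median of -0.21, with 5 of 13 genes above 0 and none called, against 0.633% of all genes called (113 genes) and 53.3% above 0. mt-atp8 was lowest at -0.75 ± 0.32 (SE, edgeR unadjusted p = 0.0268, adjusted p = 0.266) and was the 1 member with an unadjusted p under 0.05, against 14.4% of all genes. mt-co2 was highest at 0.18 ± 0.29. The median was -0.13 without the 3 libraries that stand apart, and without 28 °C control replicate 7 it was 0.12, with 10 of 13 above 0. No member had separate groups, against 2.77% of all genes.

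Controls from 32 °C stood above those from 24 °C in 12 of 13 genes, with a median log2 fold change of 0.29 and none called or with an unadjusted p under 0.05. In this comparison 0.0224% of all genes (4 genes) were called, 15.7% had an unadjusted p under 0.05 and 43.9% were above 0. The complex IV genes were highest, with mt-co2 at 0.58 ± 0.29, averaging 6246 ± 2055 CPM in 32 °C controls and 4189.9 ± 1056 CPM in 24 °C controls. mt-co1 had the smallest p, at a log2 fold change of 0.51 ± 0.26 (SE, edgeR unadjusted p = 0.0555, adjusted p = 0.329). mt-atp8 was the 1 member below 0, at -0.09 ± 0.32. The median was 0.07 with limma-voom, 0.18 without 32 °C control replicate 8 and 0.48 without 24 °C control replicate 5, and with total-count scaling 3 members had an unadjusted p under 0.05. The groups overlapped for all members and were apart for 1.58% of all genes.

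**Figure D4:**
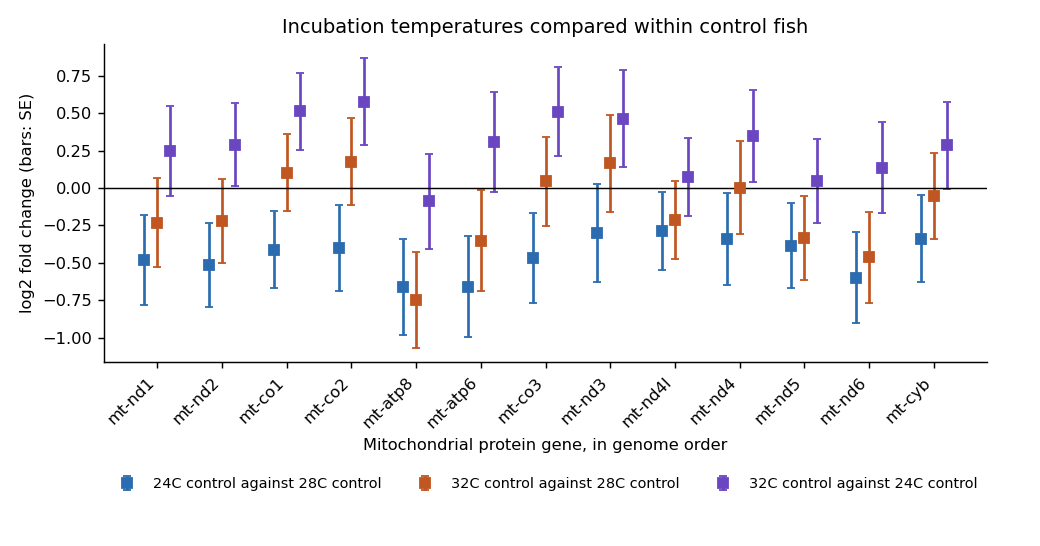
Log2 fold changes (vertical axis, bars are SE from edgeR) between incubation temperatures within control fish, for the 13 genes in genome order. The 24 °C over 28 °C values lie between -0.66 and -0.29, the 32 °C over 28 °C values on both sides of 0 and the 32 °C over 24 °C values above 0 except for mt-atp8; none passed the adjusted threshold.

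Among LPS fish, those from 32 °C had the highest mitochondrial means, without a call. Against 24 °C LPS fish the median log2 fold change was 0.61 (range 0.47 in mt-atp8 to 0.74 in mt-nd3), with all 13 above 0 and an unadjusted p under 0.05 for 8 of them: mt-nd2, mt-nd3, mt-nd4, mt-nd4l, mt-nd5 and the 3 complex IV genes. Of all genes 0% were called in edgeR, 50.9% were above 0 and 4.23% (754 genes) had an unadjusted p under 0.05. DESeq2 called 3 genes and limma-voom 0, no member among them. mt-nd4l had the smallest p, averaging 155 ± 50 CPM in 32 °C LPS fish and 95.8 ± 21.8 CPM in 24 °C LPS fish, with a log2 fold change of 0.69 ± 0.26 (SE, edgeR unadjusted p = 0.0130, adjusted p = 0.918). mt-nd3 averaged 418 ± 173 CPM in 32 °C LPS fish and 251 ± 41 CPM in 24 °C LPS fish, a log2 fold change of 0.74 ± 0.33. The groups overlapped for all 13 and were apart for 0.577% of all genes. Scaling by total counts left 1 member with an unadjusted p under 0.05 and a median of 0.34, which is 0.50 relative to a median of -0.16 over all genes.

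Against 28 °C LPS fish, 32 °C LPS fish had a median of 0.44 (range 0.26 in mt-co2 to 0.60 in mt-nd2), all 13 above 0 and 1 with an unadjusted p under 0.05. That member was mt-nd2, at 0.60 ± 0.28 (SE, edgeR adjusted p = 0.999). edgeR called 0% of all genes, 48.8% were above 0 and 4.10% (732 genes) had an unadjusted p under 0.05. DESeq2 called 6 and limma-voom 0. Groups overlapped for all 13 members and not for 0.740% of all genes. LPS fish from 24 °C and 28 °C differed by a median of -0.17 (range -0.39 in mt-nd3 to -0.01 in mt-nd1), with all 13 below 0 and none with an unadjusted p under 0.05, against 0% of all genes called, 49.0% above 0 and 8.93% (1594 genes) under 0.05. DESeq2 called 16 genes and limma-voom 0. With total-count scaling 10 of 13 were above 0, with a median of 0.14 beside 0.24 over all genes. The groups did not overlap for 0 members and 1.70% of all genes.

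The members moved together from fish to fish. Over the 78 pairs of members, Pearson's r of log2 CPM across the 30 fish was 0.63 to 0.98, with a median of 0.92. Among the 55 pairs without mt-atp8 and mt-nd6 it was 0.85 to 0.98. The 22 pairs of either of these with another member had 0.63 to 0.89, and mt-atp8 with mt-nd6 had 0.93. The closest pair was mt-co2 with mt-co3 at 0.98 and the least alike mt-co2 with mt-atp8 at 0.63. All points share the library total and its scaling, and pairs may share reads where genes overlap.

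Outside the mitochondrial genome, the genes whose log2 CPM followed the mean of the 13 most closely over 30 fish were RAB6A (r = 0.90), a GTPase of Golgi traffic, CCNL1 (0.90), a cyclin found with splicing factors, CHST10 (0.88), a sulfotransferase, LUC7L (0.88), RPS29 (0.87), RPL36AL (0.87), RPS28 (0.87) and trnau1apb (0.87). They were the highest of 10083 named genes with a mean of at least 5 CPM, and over 11215 genes at that level the median r was 0.04. With group means subtracted the highest were RPL36AL (0.91), RPL29 (0.90), RPL11 (0.90), RAB6A (0.90), CHST10 (0.90), tial1 (0.90), RPS28 (0.90) and rps20 (0.90). Cytosolic ribosomal protein genes had a median r of 0.79, and 66 of the 81 at that level had an r above 0.7.

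The mean log2 CPM of ribosomal protein genes and of the 13 had a Pearson's r of 0.82 and a Spearman's rho of 0.87 over the 30 fish. Leaving out the 2 fish farthest from the median of the ribosomal mean gave 0.83, and subtracting group means gave 0.87. The same measure for nuclear-encoded respiratory chain genes gave r = 0.58 and rho = 0.62, and for mitochondrial ribosomal protein genes r = 0.34 and rho = 0.38. All of these means carry the TMM factor of the library (0.708 to 1.268), and a low factor raises CPM. It was 0.708 and 0.778 in 32 °C LPS replicates 4 and 5. Between the log2 library shares of the 13 and of ribosomal protein genes, which do not use this factor, r was 0.75. Without the 3 libraries that stand apart it was 0.68. The log2 mitochondrial share had an r of 0.06 with the log2 library total and -0.37 with the number of genes with a count, which became -0.02 and -0.06 without these 3 libraries. With log2 marker sums, r was -0.21 for red cells, 0.16 for macrophages, 0.11 for neutrophils, 0.34 for liver, 0.21 for acinar pancreas, -0.39 for ovary and 0.46 for intestine. Without the 3 libraries these values were -0.30 for red cells, 0.01 for macrophages, -0.02 for neutrophils, 0.25 for liver, 0.36 for acinar pancreas, 0.02 for ovary and 0.51 for intestine. The summed intestine markers were 2.61 to 37.6 CPM in every library. These values are descriptions across fish, and their part in the mitochondrial values was not tested.

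**Figure D5:**
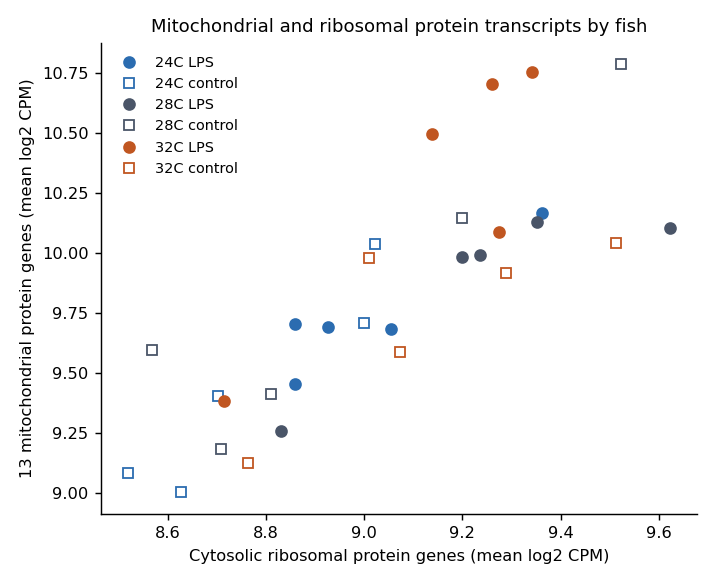
Mean log2 CPM of the 13 mitochondrial protein genes (vertical axis) against mean log2 CPM of cytosolic ribosomal protein genes (horizontal axis), 1 point per fish, LPS filled and control open. The points rise together (Pearson's r = 0.82 over 30 fish), with 28 °C control replicate 7 and 3 of the 32 °C LPS fish at the top of the vertical axis. Both axes carry the TMM factor of each library.

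The nuclear genes of the same machinery were described by list. Of 95 nuclear-encoded respiratory chain genes 91 were tested, and none was called in any of the 13 contrasts. Their median log2 fold change of LPS over control was 0.24 at 24 °C (80 of 91 above 0), -0.05 at 28 °C (32 of 91) and 0.27 at 32 °C (83 of 91), beside medians over all genes of -0.12, 0.02 and -0.02. The medians of the mitochondrially encoded genes in these comparisons were 0.28, 0.03 and 0.61. At 24 °C the median over all genes became 0.04 without 24 °C control replicate 4. The 24 °C medians of both gene sets given here include that library.

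By complex, the nuclear medians at 24 °C, 28 °C and 32 °C were 0.16, -0.04 and 0.26 for complex I (40 tested), 0.25, 0.02 and 0.30 for complex II (4 tested), 0.35, -0.21 and 0.37 for complex III (9 tested), 0.26, -0.10 and 0.28 for complex IV (20 tested), and 0.34, -0.03 and 0.26 for complex V (18 tested). SDHA, the flavin subunit of the all-nuclear complex II, averaged 113 ± 18 CPM in 32 °C LPS fish and 85.9 ± 12.3 CPM in 32 °C controls, a log2 fold change of 0.40 ± 0.14 (SE, edgeR adjusted p = 0.525). UQCR10, a small subunit of complex III, averaged 91.8 ± 41.6 CPM in 32 °C LPS fish and 59.9 ± 28.2 CPM in 32 °C controls (log2 fold change 0.62 ± 0.29, edgeR adjusted p = 0.659). COX4I2, an alternative subunit of complex IV, averaged 16.6 ± 4.2 CPM in 32 °C LPS fish and 27.6 ± 15.2 CPM in 32 °C controls (-0.73 ± 0.34, edgeR adjusted p = 0.654). At 24 °C UQCRH, the hinge protein of complex III, averaged 93.1 ± 18.2 CPM in LPS fish and 62.6 ± 7.8 CPM in controls (log2 fold change 0.57 ± 0.19, edgeR adjusted p = 0.135).

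No gene of the lists that copy, cut and translate mitochondrial RNA passed the test between LPS and control fish, where 0.0168%, 0.0112% and 0.00561% of all genes did at 24, 28 and 32 °C. At 24 °C the median over all genes was -0.12, and 0.04 without 24 °C control replicate 4. The medians and means of the lists given next are those with that library included. The list of mitochondrial transcription and replication (21 tested) had medians of -0.29, 0.12 and -0.06 for LPS over control at 24, 28 and 32 °C. POLRMT, the mitochondrial RNA polymerase, averaged 6.96 ± 0.83 CPM in 24 °C LPS fish and 11.1 ± 4.2 CPM in 24 °C controls (log2 fold change -0.68 ± 0.33, edgeR adjusted p = 0.296). RNA processing, polyadenylation and decay genes (22 tested) had medians of -0.44, -0.07 and 0.11, and MTPAP, the mitochondrial poly(A) polymerase, averaged 7.43 ± 1.14 CPM in 32 °C LPS fish and 5.59 ± 1.44 CPM in 32 °C controls. Mitochondrial ribosomal proteins (75 tested) had medians of 0.05, -0.09 and 0.19, translation factors (14 tested) -0.07, 0.02 and 0.24, mitophagy and dynamics genes (15 tested) -0.17, 0.09 and 0.15, genes of the mitochondrial unfolded protein response (15 tested) -0.13, -0.20 and 0.19, and biogenesis regulators (15 tested) -0.25, 0.02 and 0.07.

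In these lists 3 genes were called between 24 °C and 28 °C controls, a comparison in which 2.47% of all genes were called and 3.55% had groups that did not overlap. They were 2 of 15 biogenesis regulators (TFEB and ppargc1b) and 1 of 22 RNA processing, polyadenylation and decay genes (MRM2). None of the 75 mitochondrial ribosomal proteins was called, nor any gene of the other lists above. TFEB, a transcription factor that drives lysosome genes, averaged 45.7 ± 11.6 CPM in 24 °C controls and 112 ± 33 CPM in 28 °C controls (SD, n = 5 each). The log2 fold change was -1.30 ± 0.26 (SE, edgeR adjusted p = 0.0269). The ranges, 32.5 to 56.9 CPM in 24 °C controls and 76.0 to 154 CPM in 28 °C controls, did not overlap. ppargc1b, a coactivator of mitochondrial genes in mammals, averaged 32.6 ± 7.3 CPM in 24 °C controls and 65.4 ± 7.0 CPM in 28 °C controls (log2 fold change -1.003 ± 0.265, edgeR adjusted p = 0.0398). Its ranges, 24.5 to 42.6 CPM in 24 °C controls and 55.4 to 72.2 CPM in 28 °C controls, did not overlap either. In 32 °C controls TFEB averaged 56.0 ± 7.0 CPM and ppargc1b 37.9 ± 16.0 CPM, nearer the 24 °C than the 28 °C controls. In LPS fish at 24, 28 and 32 °C TFEB averaged 75.2, 69.8 and 75.5 CPM, and ppargc1b 64.7, 46.8 and 43.8 CPM. In both genes the 28 °C controls had the highest mean of the 6 groups. MRM2, a methyltransferase of mitochondrial rRNA, was higher in 24 °C controls with a median of 1.121 CPM, against 0.511 CPM in 28 °C controls (edgeR adjusted p = 0.0269), with 1 library of the 24 °C controls at 11.4 CPM. Without the 3 libraries that stand apart none of the 3 calls held, with adjusted p of 0.101 for TFEB, 0.150 for ppargc1b and 0.199 for MRM2, and log2 fold changes of -1.21, -0.92 and 1.197. Leaving out 24 °C control replicate 4 or 28 °C control replicate 2, 3 or 7 alone also ended each of the 3 calls. The ppargc1b call was lost as well without 24 °C control replicate 2 or 8 or 28 °C control replicate 1 or 5.

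Of the itaconate and immune mitochondrial genes (16 tested, medians of 0.33, -0.23 and 0.08 for LPS over control at 24, 28 and 32 °C), 1 was called, in the difference between the responses at 24 °C and 28 °C, where 0.751% of all genes were called. ACOD1 encodes the mitochondrial enzyme that makes itaconate in activated mammalian macrophages. It averaged 428 ± 52 CPM in 24 °C LPS fish and 173 ± 54 CPM in 24 °C controls, and 160.0 ± 96.4 CPM in 28 °C LPS fish and 414 ± 149 CPM in 28 °C controls (SD, n = 5 each). The response at 24 °C exceeded that at 28 °C by 2.68 ± 0.60 on the log2 scale (SE, edgeR adjusted p = 0.0374), while the difference between LPS and control did not pass the test at either temperature. Leaving out 1 library at a time kept the call in 23 of 30 fits. These include the fits without a fish from 32 °C, which is outside this contrast. The call was lost, with adjusted p up to 0.0889, without 24 °C LPS replicate 1 or 3, 24 °C control replicate 4, 28 °C LPS replicate 1 or 4, or 28 °C control replicate 2 or 7. In that same contrast none of the 13 mitochondrially encoded genes was called. Summed macrophage markers had ranges of 4868 to 7818 CPM in 24 °C LPS fish and 2592 to 4809 CPM in 24 °C controls, and of 2292 to 7051 CPM in 28 °C LPS fish and 3648 to 6105 CPM in 28 °C controls, while summed neutrophil markers had ranges of 1167 to 1828 CPM in 24 °C LPS fish and 620 to 1205 CPM in 24 °C controls, and of 499 to 1500.1 CPM in 28 °C LPS fish and 1364 to 2000.4 CPM in 28 °C controls. The part of either in the ACOD1 values was not tested.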

How the data were processed

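The authors deposited raw whole-number counts of 31901 Ensembl genes in every library. Symbols were found for 29178 of these IDs in a name table; symbols in capitals are those of human orthologues, and mitochondrial symbols are written in zebrafish style. Per the labels' protocols, mRNA was captured by its poly(A) tail and a directional kit was used. The submitters' processing notes name bcl2fastq, cutadapt 1.12, FastQC 0.11.5, STAR, DESeq2 1.11.1 and the GRCz11 build. As to the counting program, annotation and strand setting: not given in the sources used here. Coordinates and transcript sequences were not used here.

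Counts were fitted in R 4.3.3 with edgeR 4.0.16: filterByExpr (17841 genes left), TMM scaling, 1 robust quasi-likelihood fit of all 30 libraries with a mean per group (24 residual degrees of freedom), Benjamini-Hochberg adjustment over all genes tested, and a threshold of 0.05. Each SE was taken as the size of the log2 fold change over the root of its F statistic. CPM refer to the TMM-scaled library, and marker sums to the library total. log2 CPM use a prior count of 2. Alternatives used DESeq2 1.42.0, limma 3.58.1 (voom with quality weights), other scalings and filters, a replicate block, and fits without libraries. The fitting code was tested on simulated data.

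The members, gene lists, contrasts and alternatives were chosen with earlier results of these data known. Named by rule were the members with the largest and smallest fold change and the smallest p of a contrast, mt-co1, mt-nd1 and mt-nd6 in every fish, the 8 genes most like the members in 2 forms of the correlation, and from the lists every called gene and some of those with the largest changes. mt-atp8 was added fish by fish, as were the library ratios, after its values were seen. No p was computed for the share or for the members as a set. Nothing says that samples came from separate tanks, so p-values measure the spread among these fish. All 60 pairs of libraries within groups differed beyond counting noise, with a chi-square of at least 34.1 per degree of freedom.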

Additional observations from a re-analysis of the deposited data

Results flagged for a closer look

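Samples far from the rest of their group of 5 were looked for in the CPM of each member, in its share of the mitochondrial counts and in the library share. The gap to the nearest fish, divided by the range of the group, exceeded Dixon's critical value of 0.710 in 13 of 162 groups. For a single group chance gives about 1 in 20. The 162 reuse the same fish and members that move together, so they are not separate tests and no excess over chance is read from them.

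Among 24 °C LPS fish, replicate 2 stood high in mt-nd4l (134 CPM) and mt-nd4 (1879 CPM), replicate 1 in the mt-co3 share (16.3% of the mitochondrial counts), and replicate 3 low in the cytochrome b share (mt-cyb, 8.56%). Among 28 °C LPS fish, replicate 2 stood low in mt-nd2 (657 CPM), mt-nd4 (938 CPM) and mt-cyb (1909 CPM), and replicate 4 high in the mt-co3 share (18.4%). Among 28 °C controls, replicate 7 stood high in mt-nd4l (207 CPM) and in the mt-nd4 share (5.09%). Replicate 4 of the 32 °C LPS fish stood high in the mt-nd4 share (5.27%). Replicate 8 of the 32 °C controls stood low in the mt-atp8 share (0.0704%) and high in the mt-cyb share (9.34%). The causes were not tested.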

How the results depend on the processing

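None of the 13 genes was called in any of the 13 contrasts, as reported, under 12 alternatives (11 for the average response) or in 30 fits that each left out 1 library: 0 of 7254 member tests had an adjusted p under 0.05, the smallest being 0.109. The median log2 fold change of the 13 moved by more than the within-group SD of their mean (0.46) in 1 case. This was the difference of responses at 32 °C and 28 °C, which was 0.19 with a replicate block and 0.65 without. The block also takes 28 °C control replicate 7 out of the contrast, as described below. Without that library alone the median was 0.31. Medians near 0 changed sign: at 28 °C, LPS over control was -0.21 to 0.32 over the alternatives; 24 °C over 28 °C LPS fish -0.20 to 0.14; 32 °C over 28 °C controls -0.25 to 0.17; the difference of responses at 24 °C and 28 °C -0.04 to 0.50. Leaving out 1 library gave -0.16 to 0.35, -0.23 to -0.05, -0.38 to 0.12 and -0.04 to 0.41 in the same contrasts, and 0.44 to 0.79 for LPS over control at 32 °C and 0.25 to 0.45 at 24 °C. The causes were not tested.

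Calls over all genes moved by more than 1.5 times. LPS over control had 3 at 24 °C (0 to 268 over the alternatives), 2 at 28 °C (0 to 69) and 1 at 32 °C (0 to 16), and 24 °C over 28 °C controls had 440 (7 to 924). Other contrasts had 134 (33 to 824) for the 24 °C and 28 °C responses, 20 (0 to 147) for 32 °C and 28 °C, 4 (0 to 32) for 32 °C and 24 °C, 2 (1 to 6) for the average, 113 (0 to 666) for 32 °C over 28 °C controls and 4 (0 to 298) for 32 °C over 24 °C controls. The high ends were DESeq2's, except for the average, where it was limma-voom's.

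Leaving out 1 library gave 0 to 292 calls for LPS over control at 24 °C (292 without 24 °C control replicate 2), 3 to 446 for the 24 °C and 28 °C responses (3 without 28 °C LPS replicate 1), 5 to 52 for the 32 °C and 28 °C responses (5 without 28 °C control replicate 2), 5 to 753 for 24 °C over 28 °C controls (5 without 28 °C control replicate 7), 4 to 506 for 32 °C over 28 °C controls (4 without 28 °C control replicate 3) and 1 to 97 for 32 °C over 24 °C controls (97 without 24 °C control replicate 5).

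Same-numbered libraries of different groups had correlations of deviations of -0.17 to 0.48, with a median of 0.02 (51 pairs, 17 above 0.1). Different-numbered libraries had -0.41 to 0.40, with a median of -0.01 (324 pairs, 68 above 0.1). These values do not settle whether replicate numbers pair the fish. Replicate numbers 6, 7 and 10 each occur in 1 library, namely 32 °C control replicates 6 and 10 and 28 °C control replicate 7. A block by number fits such a library by itself, so these libraries add nothing to the contrasts. The block is thus also a fit without them. With a replicate block the difference of responses at 32 °C and 24 °C had a median of 0.19 (9 of 13 above 0), and 32 °C over 24 °C controls had 3 members with an unadjusted p under 0.05. The average response had a median of 0.39 with the block. There 10 of 13 members had an unadjusted p under 0.05 in edgeR, against 0 of 13 without the block. Leaving out 28 °C control replicate 7 alone, which the block also does, gave 13 of 13 and a median of 0.38. The shares of all genes under 0.05 in these 2 fits are not given here. The block changed no member's call, but ended those of TFEB, ppargc1b and MRM2, as did leaving out 28 °C control replicate 7 alone. Those calls held in 8, 8 and 7 of 12 alternatives and in 26, 22 and 26 of 30 fits without 1 library, and ACOD1's in 11 of 12. Most of the 30 fits left out a fish from outside the 24 °C and 28 °C controls. Every loss of the TFEB, ppargc1b and MRM2 calls came from leaving out 1 of those controls. Counting the protein genes only was no alternative here, since no rRNA or tRNA was matched and the 13 were the whole set.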
